A study of Mus musculus with 20 samples.

Results

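Among single cells of the mouse inner cell mass, those that carried almost no Fgf4 signal were compared here by whether they carried Klf2. Cells were chosen by the deposited intensity of 500 or less for Fgf4, which 10 of the 20 measured cells met. They were split at a deposited intensity of 100 for Klf2 into 4 Klf2-high cells (6, 8, 10 and 17) and 6 Klf2-low cells (3, 4, 5, 11, 15 and 20). All 20 were C57BL/6 cells from blastocysts at embryonic day 3.5, and each Affymetrix array held the PCR-amplified cDNA of 1 cell, numbered here as in its label. They belong to a random pick of 55 cells, per the submitters' design text, of which 50 passed a PCR screen as positive for Oct4 and negative for Cdx2. The labels formed 1 group and tied no cell to an embryo, so both classes were defined from values on these same arrays. The p-values below therefore measure only how other genes divided along that reading, over cells that may share an embryo.

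Klf2 is a Kruppel-like zinc finger transcription factor that, with Klf4 and Klf5, helps to maintain the naive pluripotent state of mouse embryonic stem cells. In the blastocyst the inner cell mass gives rise to the epiblast, marked by Nanog, Sox2 and Fgf4, and to the primitive endoderm, marked by Gata6, Gata4, Sox17 and Pdgfra. FGF4 from epiblast-fated cells signals through FGF receptors and ERK in their neighbours, which favours primitive endoderm and lowers pluripotency factors there.

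The values that chose the cells are given as a description, with no test. Levels are log2(intensity + 8.77) after quantile normalization, where the lowest possible level is 3.29. The floor of an array, set from genes of unrelated tissues, lay between 6.64 and 7.38. Klf2 levels were 10.49, 9.10, 8.47 and 8.34 in cells 6, 8, 10 and 17, all above the floor. In the 6 Klf2-low cells they ran from 3.29 through a median of 3.40 to 5.94, all below it. Against the floor, the Klf2 level was at least 4.28-fold higher in the Klf2-high cells. On the deposited scale the cell just inside the Klf2 threshold was cell 17 at 341 and the one just outside was cell 15 at 55.1. For Fgf4 the nearest cells were cell 15 at 5.37 inside and cell 12 at 1568 outside. The 10 Fgf4-high cells had Klf2 levels from 10.81 to 11.62, so that even cell 6 lay below that range.

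**Figure D1:**
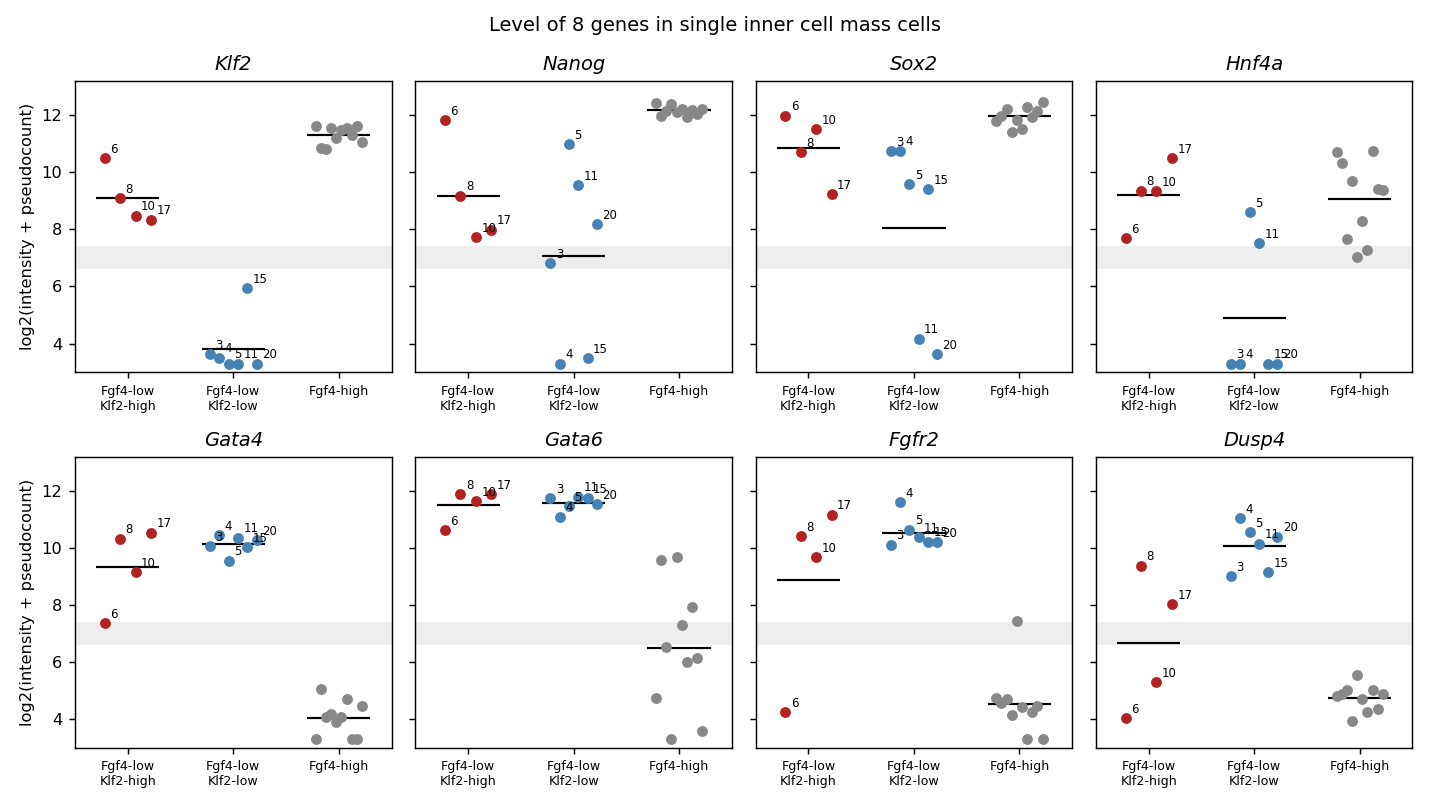
Levels of Klf2, Nanog, Sox2, Hnf4a, Gata4, Gata6, Fgfr2 and Dusp4 on the log2(intensity + 8.77) scale in single cells (points), with the class mean (line) and the range of array floors (grey band). The 4 Klf2-high (red) and 6 Klf2-low (blue) cells are Fgf4-low and carry their numbers, and the 10 Fgf4-high cells are grey. Cell 6 had the highest Nanog level of the Fgf4-low cells and the lowest of Gata4 and Fgfr2.

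Fgf4-low cells carried the primitive endoderm markers Gata4, Gata6, Sox17 and Pdgfra whether or not they held Klf2. These 4 were above the floor in 0, 4, 1 and 5 of the 10 Fgf4-high cells, in that order, and in 10 of 10 Fgf4-low cells. Of 28 measured markers of the lineage, 4 others passed the floor in none of the Fgf4-low cells. Pou5f1 (Oct4), the gene of the PCR screen, was also above the floor in all 10, at 10.78 ± 0.57 (SD, n = 4) in Klf2-high and 10.65 ± 0.63 (SD, n = 6) in Klf2-low cells. Array measures overlapped between the classes. The share of probe sets above the floor was 24.0% to 26.5% in the Klf2-high and 25.4% to 27.3% in the Klf2-low cells, with medians of 25.5% and 26.7%, and its part in the differences below was not tested beyond the covariate named there. Mean correlation with the other cells was 0.621 to 0.672 against 0.592 to 0.659. The 4 lowest values were those of cells 8 and 17 among the 4 Klf2-high cells and cells 4 and 20 among the 6 Klf2-low cells. Of 16 measured trophectoderm markers, 5 to 6 per Klf2-high cell and 4 to 7 per Klf2-low cell were above the floor, and their summed log2 level was 100.9 to 109.9 against 99.2 to 108.6. None of the 10 cells passed the floor for Atp12a, Lgals3, Krt19, Krt7, Tfap2a, Gata3 or Elf5.

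No gene passed the test between the classes, while epiblast markers mostly had the higher mean in Klf2-high cells and primitive endoderm markers the lower. Of 8395 genes tested with limma, 0 had a Benjamini-Hochberg adjusted p under 0.05 (0% called), and the smallest adjusted p was 0.0713. Of 23 other settings 11 called 1 to 3 genes, among them those without cell 4, 6, 8, 17 or 20 (up to 3 genes each). At an unadjusted p under 0.05 there were 255 genes with the higher mean in Klf2-high cells (3.04%) and 271 with the lower (3.23%), together 6.27%. Levels of the classes did not overlap for 57 genes in the higher direction (0.679%) and 51 in the lower (0.608%), together 1.29%. The mean was at least 1 log2 unit higher for 1079 genes (12.9%) and at least 1 lower for 886 (10.6%), together 23.4%. Higher means numbered 4237 (50.5%) and lower means 4158 (49.5%), and the median difference over all genes was 0.00. Differences below are Klf2-high minus Klf2-low means in log2 units with their SE, and no listed gene passed the adjusted threshold.

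Among the epiblast markers, 7 of 8 tested had the higher mean in Klf2-high cells, and the median difference was 1.39 against 0.00 over all genes. With the share of probe sets above the floor as a covariate that median was 0.34, and with values below the floor raised to it 0.66. The lowest median on leaving out 1 cell was 0.77 (without cell 10), and a Klf2 threshold of 500 gave 0.76. Of 13 listed markers, Klf2 and Fgf4 were not tested, and Otx2, Enox1 and Nodal were above the floor in 0 of the 10 cells. None of the 8 passed at an unadjusted p under 0.05, and the lowest adjusted p was 0.779.

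Nanog, the homeodomain factor of the epiblast, was at 11.83, 9.19, 7.73 and 7.98 in cells 6, 8, 10 and 17, and in the Klf2-low cells ran from 3.29 through a median of 7.50 to 10.99. All 4 Klf2-high cells were above the floor, as were 3 of the 6 Klf2-low cells, and the ranges overlapped widely. The difference was 2.13 ± 1.59 (SE), with an exact permutation p of 0.262 (two-sided, 210 splits, adjusted p = 0.393 over Nanog, Gata4 and Gata6, smallest possible p 0.00476). It was 1.25 without cell 6 and 0.89 with values raised to the floor. Cell 6 alone came near the Nanog range of the Fgf4-high cells, 11.93 to 12.44.

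Sox2, the partner of Oct4 at pluripotency enhancers, was at 11.99, 10.71, 11.52 and 9.22 in the Klf2-high cells. In the Klf2-low cells it ran from 3.62 through a median of 9.50 to 10.76. It was above the floor in 4 of 4 and 4 of 6, with cells 11 and 20 the low ones, and differed by 2.81 ± 1.56 (limma p = 0.101, adjusted p = 0.808), or 1.80 with values raised to the floor. Utf1, a chromatin-bound factor of pluripotent cells, read 10.85, 10.22, 9.57 and 10.95, against 7.02 through 9.06 to 10.92 in the Klf2-low cells. Its difference was 1.60 ± 0.73 (limma p = 0.0524, adjusted p = 0.779), and its other probe sets above the floor differed by 2.16 and 1.94.

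Tdgf1, a Nodal co-receptor, lay between 12.34 and 12.47 in the Klf2-high cells and between 11.41 and 12.54 in the Klf2-low cells, a difference of 0.42 ± 0.23. Bmp4 varied most among the Klf2-high cells, with 4.98 in cell 6, 8.22 in cell 8, 11.74 in cell 10 and 11.41 in cell 17. Its difference of 2.03 ± 1.49 became -1.59 when only cells 6 and 8 were counted as Klf2-high. The differences of Prdm14 (1.18 ± 1.49) and the nuclear receptor gene Esrrb (0.38 ± 0.65) were smaller than their SE. Gdf3, a TGF-beta family ligand, had the lower mean (-0.66 ± 0.44), but its other probe set differed by 0.42.

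**Figure D2:**
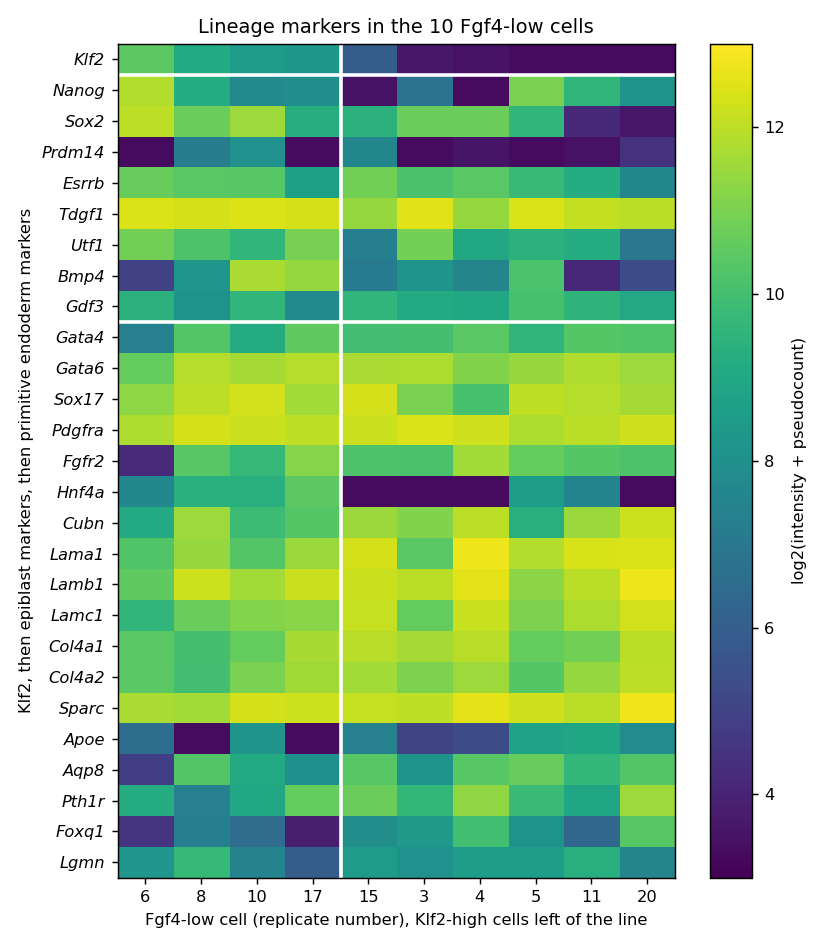
Level (colour, log2(intensity + 8.77)) of Klf2, 8 tested epiblast markers and 18 tested primitive endoderm markers in the 10 Fgf4-low cells, ordered by Klf2 level within class. The 4 Klf2-high cells stand left of the vertical line. Hnf4a was near the lowest possible level in cells 3, 4, 15 and 20, and Fgfr2 was below the floor in cell 6 only.

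General pluripotency genes showed no common direction. Of 22 tested, 14 had the higher and 8 the lower mean, with a median difference of 0.05. At an unadjusted p under 0.05 stood Nr5a2 with the higher mean and Sall4 and Lin28a with the lower. The shares over all genes tested were 3.04% higher and 3.23% lower. Nr5a2, a nuclear receptor that can sustain Oct4 transcription, was between 9.70 and 10.43 in all 4 Klf2-high cells and ran from 5.98 through a median of 8.62 to 9.999 in the Klf2-low cells. It differed by 1.75 ± 0.69 (limma p = 0.0293, adjusted p = 0.779), by 2.55 and 1.44 on its other probe sets, and its levels in the Fgf4-high cells were 9.72 to 11.87. Sall4, a zinc finger factor of the same network, differed by -0.37 ± 0.16. Lin28a, an RNA-binding protein that blocks let-7 maturation, was at 6.01, 9.77, 3.51 and 3.29 in cells 6, 8, 10 and 17, and between 7.40 and 9.97 in the Klf2-low cells. It was thus above the floor in 1 of 4 against 6 of 6, and in 0 of the 10 Fgf4-high cells, with a difference of -2.87 ± 1.15 (limma p = 0.0316, adjusted p = 0.779). The corepressor gene Trim28 differed by 0.00 ± 0.07. Beyond the naming rule, Nr5a2, Sall4, Pou5f1, Klf4, Klf5, Spred1, Serpinh1, P4ha1, Mef2d, Map2k5, Dnmt3b, Dnmt3l and Chac1 were chosen after their values were seen.

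Other Kruppel-like factors showed no common direction. Of 9 tested, 5 had the higher and 4 the lower mean (median 0.19, or -0.04 with values raised to the floor), and 0 passed at an unadjusted p under 0.05. Klf4 was above the floor in all 10 cells, at 10.83 ± 0.43 (SD, n = 4) and 10.22 ± 0.81 (SD, n = 6), a difference of 0.61 ± 0.42. Klf5 was at 11.57 ± 0.66 and 11.89 ± 0.48, and 2 other Klf5 probe sets differed by -0.09 and -4.80. Klf13 had the difference furthest from 0 (0.94 ± 0.94) and Klf9 the one nearest to it (0.19 ± 0.47). Other probe sets differed by 2.62 for Klf13 and by 0.34, 0.34, -1.66 and -0.83 for Klf9.

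Primitive endoderm markers were on the lower side in Klf2-high cells, with 16 of 18 tested having the lower mean and a median difference of -0.78. Leaving out 1 cell at a time gave medians from -1.11 to -0.55, the one nearest to 0 without cell 6. At an unadjusted p under 0.05 there were 3 lower markers (Lama1, Lamc1 and Foxq1) and 1 higher (Hnf4a). Over all genes tested 3.23% were lower and 3.04% higher at that p. Of 28 measured markers, none of the 10 cells passed the floor for Afp, Ttr, Dab2 or Sox7, and 6 others passed it in 1 or 2 cells. Foxa2 and Srgn were above the floor in cells 4 and 20 only, both Klf2-low.

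Among the transcription factors that specify the lineage, Gata6 had the difference nearest to 0. It was at 10.63, 11.89, 11.65 and 11.88 in cells 6, 8, 10 and 17 and between 11.10 and 11.81 in the Klf2-low cells. Its difference was -0.06 ± 0.25, with an exact permutation p of 0.852 (two-sided, adjusted p = 0.852 over the 3 genes). Gata4, which acts downstream of Gata6, was at 7.37, 10.33, 9.16 and 10.54, against 9.56 through a median of 10.18 to 10.45. Its difference of -0.78 ± 0.57 (exact permutation p = 0.262, adjusted p = 0.393) was -0.12 without cell 6. Sox17 (0.32 ± 0.42) and the receptor gene Pdgfra (-0.07 ± 0.15) had differences smaller than their SE. However, 2 other Pdgfra probe sets differed by -0.90 and -0.70, while the other Sox17 probe set differed by 0.28.

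Hnf4a, which encodes a nuclear receptor of visceral endoderm and liver, and Sox17 were the 2 markers of the list with the higher mean. Hnf4a was at 7.69, 9.36, 9.33 and 10.49 in cells 6, 8, 10 and 17, all above the floor. In the Klf2-low cells it lay at 3.29 in cells 3, 4, 15 and 20 and above the floor only in cells 5 (8.60) and 11 (7.51). The difference was 4.34 ± 1.24 (limma p = 0.00547, adjusted p = 0.706), 1.87 with values raised to the floor, and 3.83 on its other probe set. All 10 Fgf4-high cells were above the floor too, at 7.02 to 10.74.

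Foxq1, a forkhead factor, showed the reverse layout. It read 4.50, 7.33, 6.56 and 3.82 in the Klf2-high cells and ran from 6.29 through a median of 8.25 to 10.41 in the Klf2-low cells. It was above the floor in 1 of 4 and 5 of 6, and in none of the Fgf4-high cells. The difference was -2.96 ± 0.93 (limma p = 0.00931, adjusted p = 0.759), -1.44 with values raised to the floor, and -4.96 on its other probe set.

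Other markers of the lineage mostly had lower means with wide overlap. The endocytic receptor gene Cubn was at 9.10, 11.52, 9.84 and 10.37, against 9.31 through 11.49 to 12.22 (difference -1.06 ± 0.60). The water channel gene Aqp8 read 4.85 in cell 6 and 8.01 to 10.32 in the other Klf2-high cells (-1.86 ± 0.95), and Pth1r, the receptor for parathyroid hormone-related peptide, differed by -1.29 ± 0.69. Apoe, a lipid carrier, was above the floor in 1 of 4 and 4 of 6 cells (-1.86 ± 1.19, or -0.45 with values raised to the floor). The lysosomal protease gene Lgmn differed by less than its SE (-0.60 ± 0.66). Without cell 6 Aqp8 differed by -0.79 and Cubn by -0.70.

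The tested laminin and type IV collagen genes and Sparc had lower means, as did most markers of the list. Lama1, the laminin alpha chain of the early basement membrane, was at 10.27, 11.44, 10.33 and 11.51 in cells 6, 8, 10 and 17. In the Klf2-low cells it was 10.44 in cell 3 and 11.86 to 12.74 in the others, so only cell 3 fell within the Klf2-high range. Its difference was -1.15 ± 0.45 (limma p = 0.0287, adjusted p = 0.779). Lamc1, the gamma chain, differed by -1.01 ± 0.42 (limma p = 0.0378, adjusted p = 0.779) but by -0.20 on its other probe set. Lamb1 (-0.47 ± 0.37), the type IV collagen genes Col4a1 (-0.78 ± 0.38) and Col4a2 (-0.57 ± 0.36) and the matrix protein gene Sparc (-0.31 ± 0.20) also had lower means. Without cell 6 the difference was -0.64 for Lamc1 and -0.10 for Lamb1.

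Among 12 tested genes of collagen and basement membrane synthesis, 5 had the higher and 7 the lower mean. The median was -0.26, ranging from -0.50 without cell 11 to -0.08 without cell 10. The 3 with an unadjusted p under 0.05 were all lower, as were 3.23% of all genes tested at that p. Serpinh1, the collagen chaperone HSP47, was at 10.90, 12.39, 12.002 and 12.11 in the Klf2-high cells and at 12.46 through 12.63 to 13.01 in the Klf2-low cells. These ranges did not overlap, as for 0.608% of all genes tested in that direction. The Serpinh1 difference was -0.82 ± 0.25 (limma p = 0.0078, adjusted p = 0.759). The prolyl hydroxylase subunit genes P4ha1 and P4ha2, whose products stabilise the collagen helix, differed by -0.81 ± 0.34 and -1.03 ± 0.42. Without cell 6 the difference was -0.51 for Serpinh1 and -0.53 for P4ha1. Hspg2, the perlecan gene, differed by 0.03 ± 0.26 and by -1.99 on its other probe set.

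**Figure D3:**
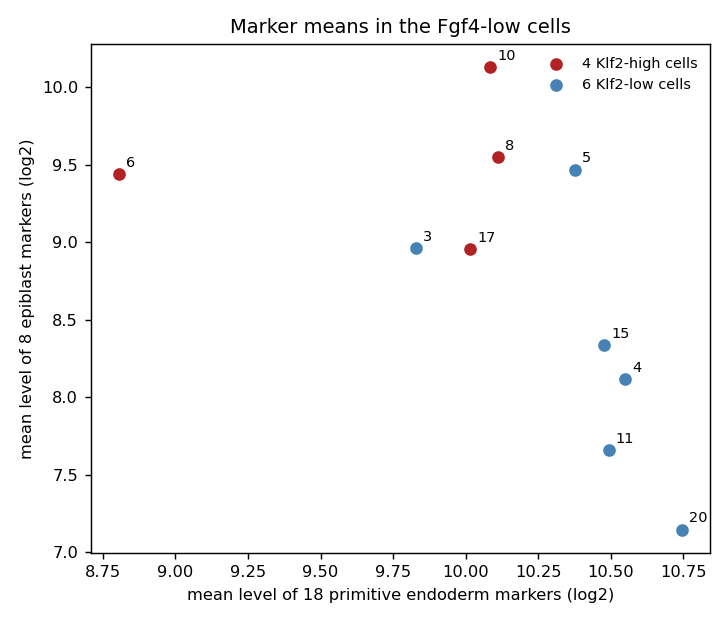
Mean log2 level of the 8 tested epiblast markers (vertical, Klf2 and Fgf4 left out) against that of the 18 tested primitive endoderm markers (horizontal) in each Fgf4-low cell, labelled by number. Cell 6 stands apart at 8.80 for primitive endoderm, and cell 20 lies at the other corner with 10.75 and 7.15.

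Marker means of the classes overlapped. The mean level of the 8 epiblast markers was 9.44, 9.55, 10.13 and 8.96 in cells 6, 8, 10 and 17. In the Klf2-low cells it was 8.96, 8.12, 9.47, 7.66, 8.34 and 7.15 in cells 3, 4, 5, 11, 15 and 20, so cells 3 and 5 fell among the Klf2-high cells. The mean of the 18 primitive endoderm markers was 8.80 in cell 6 and 10.02 to 10.11 in the other Klf2-high cells, against 9.83 in cell 3 and 10.38 to 10.75 in the other Klf2-low cells. In the Fgf4-high cells the same means were 9.27 to 11.56 and 5.83 to 7.72, so cell 6 was nearest to them in the second but still above their range.

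FGF receptor and ERK pathway genes were mixed, with 6 of 17 tested having the higher mean and 11 the lower (median -0.38). That median was 0.04 with values raised to the floor, 0.29 with the Klf2 threshold at 500, and from -0.81 (without cell 17) to -0.09 (without cell 4) leaving out 1 cell. Dusp4 and Spred1, both negative-feedback regulators of ERK signalling, were the 2 with an unadjusted p under 0.05, and both were lower. Over all genes tested 3.23% were lower at that p. Dusp4, a nuclear phosphatase of ERK, was at 4.03, 9.38, 5.29 and 8.03 in cells 6, 8, 10 and 17 and ran from 9.02 through a median of 10.27 to 11.05 in the Klf2-low cells. It was below the floor in cells 6 and 10 and above it in all 6 Klf2-low cells, and cell 8 alone reached the Klf2-low range. The difference was -3.37 ± 0.96 (limma p = 0.00561, adjusted p = 0.706), or -2.12 with values raised to the floor. In the Fgf4-high cells Dusp4 was above the floor in 0 of 10.

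Spred1, which keeps RAF from being activated, read 4.73, 6.95, 7.40 and 5.57, against 6.96 through 8.52 to 10.002 (-2.28 ± 0.72, limma p = 0.0101, adjusted p = 0.759). Its 2 other probe sets differed by -2.40 and -0.23. With values raised to the floor Spred1 differed by -1.28. Fgfr2, the receptor gene of this lineage, was at 4.24 in cell 6 and at 9.68 to 11.17 in the other Klf2-high cells, and at 10.11 to 11.61 in the Klf2-low cells. Its difference of -1.65 ± 1.15 was -0.11 without cell 6. Fgfr4 differed by 0.03 ± 0.27 at levels close to the floor.

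ERK5 phosphorylates the MEF2 factors that activate Klf2 in endothelial cells. Of 8 genes of that route, 4 were tested and 0 of them had the higher mean in Klf2-high cells. Mapk7 (ERK5) differed by -1.58 ± 1.14, its kinase gene Map2k5 by -1.28 ± 1.10, Mef2d by -0.43 ± 0.98 and Map3k3 by -0.14 ± 0.94. With values raised to the floor the median of these 4 was -0.16 in place of -0.86, and Mef2d differed by 0.12. Other probe sets above the floor differed by 0.60 for Map3k3, -1.17 for Mef2d and -1.19 for Map2k5.

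In the LIF and STAT3 pathway, which supports naive pluripotency, 6 of 10 tested genes had the higher mean (median 0.30). Leaving out 1 cell gave medians from -0.07 (without cell 4) to 0.68 (without cell 8). Bcl3, a coactivator of NF-kappa B and a STAT3 target, was above the floor in 4 of 4 Klf2-high and 2 of 6 Klf2-low cells, at 7.14, 8.40, 9.04 and 9.47 against 3.29 through 6.45 to 8.62. It differed by 2.19 ± 0.99 (limma p = 0.0509, adjusted p = 0.779), or 1.05 with values raised to the floor. Bcl3 was above the floor in all 10 Fgf4-high cells. The shared cytokine receptor gene Il6st differed by 0.06 ± 0.31. In BMP, Nodal and WNT signalling 9 of 14 tested genes had the higher mean (median 0.15, ranging from -0.02 without cell 8 to 0.43 without cell 4). There the activin receptor gene Acvr1b differed by -2.87 ± 1.53 and Ctnnb1 (beta-catenin) by 0.01 ± 0.08.

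**Figure D4:**
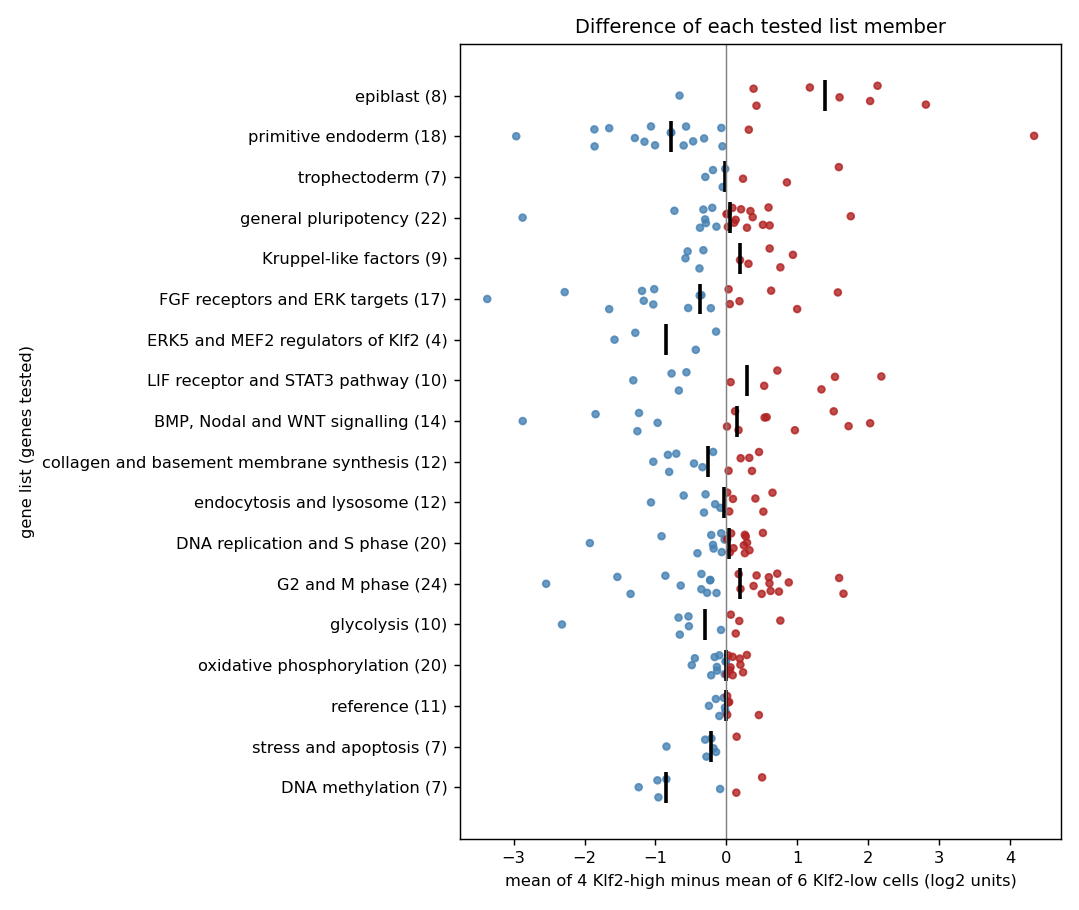
Difference of each tested list member, as the mean of 4 Klf2-high minus the mean of 6 Klf2-low cells in log2 units (horizontal), with the list's median (black bar) and number of genes tested beside its name. Red points are above 0 and blue points below it. The epiblast median is 1.39, the primitive endoderm median -0.78 and those of oxidative phosphorylation and the reference genes 0.00 and -0.01.

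DNA methylation genes had the lower mean for 5 of 7 tested (median -0.85). Tet2, which oxidises methylated cytosine, differed by -1.24 ± 0.62, the de novo methyltransferase gene Dnmt3b by -0.97 ± 0.55 and its cofactor gene Dnmt3l by -0.85 ± 0.45, while the maintenance enzyme gene Dnmt1 differed by -0.09 ± 0.42. Other probe sets differed by -0.28 for Tet2 and by -3.81 for Dnmt3b. The median of this list ran from -0.98 without cell 8 to -0.20 without cell 10, and was 0.01 with the share of probe sets above the floor as a covariate.

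Genes of cell division showed no common direction. Of 24 tested G2 and M phase genes, 13 had the higher mean (median 0.19, ranging from -0.32 without cell 6 to 0.70 without cell 8). Ccnf (cyclin F) was above the floor in 0 of 4 and 5 of 6 cells, so it met the filter on low values through Klf2-low cells alone. It was at least 1.06-fold lower in the Klf2-high cells, and Plk1, a mitotic kinase gene, differed by -0.14 ± 1.31. The mean of the G2 and M phase genes was 7.76 to 10.24 in the Klf2-high and 6.99 to 10.38 in the Klf2-low cells. Of 20 S phase genes 11 had the higher mean (median 0.03), with Pola1 at -1.93 ± 1.18 and the helicase gene Mcm7 at 0.01 ± 0.08.

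Of 10 glycolysis genes 4 had the higher mean and 6 the lower (median -0.30, but -0.04 without cell 6 or cell 10). The phosphofructokinase gene Pfkl was below the floor in cell 6 alone (difference -2.32 ± 1.12, and -0.52 on its other probe set), and Pgam1 differed by 0.06 ± 0.19. Of 20 oxidative phosphorylation genes 10 had the higher mean (median 0.00), with Ndufb10 at -0.49 ± 0.23 and Cox5a at 0.00 ± 0.06. Among 11 reference genes the median was -0.01, with Tbp at 0.46 ± 0.58 and Rpl7 at -0.01 ± 0.04. In the endocytosis and lysosome list 6 of 12 had the higher mean (median -0.04), and Lamp1 differed by 0.01 ± 0.14.

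Stress and apoptosis genes had the lower mean for 6 of 7 tested (median -0.21). Hspa5 (BiP), the endoplasmic reticulum chaperone, was at 10.42, 12.16, 10.53 and 12.64 in cells 6, 8, 10 and 17 and at 12.04 through 12.16 to 12.65 in the Klf2-low cells. It differed by -0.84 ± 0.42, with cells 6 and 10 the low ones, and by -0.50 without cell 6. Chac1, a glutathione-degrading enzyme gene of the stress response, did not overlap between the classes but lay near the floor (-0.30 ± 0.28). Over all genes tested 0.608% did not overlap in that direction. Chac1 was above the floor in 0 of 4 and 3 of 6 cells, so it met the filter on low values through Klf2-low cells alone. Bcl2l11 differed by 0.15 ± 1.08. Trophectoderm genes had the higher mean for 3 of 7 tested (median -0.02, or 0.28 with values raised to the floor). Eomes was above the floor in 3 of 4 and 3 of 6 cells (1.59 ± 1.34), and Cdx2 read 7.47 ± 0.19 (SD, n = 4) and 7.48 ± 0.30 (SD, n = 6). Cdx2 was above the floor in 3 of 4 and 6 of 6 cells, at levels close to it. Cells that passed the PCR screen were negative for Cdx2, and the reason for this discrepancy was not tested. Of the oocyte and the two-cell-stage genes only Nlrp5 (-0.15 ± 1.36) and Eif1a (-0.38 ± 0.22) were tested.

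Outside the lists, genes were named by the smallest p in each direction among those above the floor in every cell of the higher class. They were ranked on this comparison, so their separation is a description. Gemin8, a subunit of the SMN complex that assembles spliceosomal RNPs, read 9.44, 8.57, 8.43 and 7.88 in the Klf2-high cells and 3.29 through 3.52 to 4.18 in the Klf2-low cells. All Klf2-low cells were below the floor, which makes the level at least 2.98-fold higher in the Klf2-high cells. Rab38, a small GTPase of lysosome-related organelles, read 7.40, 8.24, 8.84 and 8.61 against 4.10 through 4.76 to 4.99. It was at least 2.41-fold higher, and its other probe set above the floor differed by 2.17. Both genes were above the floor in part of the Fgf4-high cells, in 6 and 4 of 10. They met the filter on low values through the 4 Klf2-high cells alone.

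Rap1a, Atp5g1 and Cse1l were above the floor in every cell. Rap1a, a small GTPase of cell adhesion, was at 11.91, 11.53, 11.97 and 11.40 and at 10.10 through 10.82 to 11.25, a difference of 0.94 ± 0.23. Atp5g1, a subunit of the ATP synthase ring, differed by 0.33 ± 0.08 without overlap, and the nuclear export factor gene Cse1l by 0.58 ± 0.16 with a single overlapping cell. Hspbap1 (2.79 ± 0.61), the centriole assembly gene Stil (3.61 ± 0.93), Ccdc88c (3.03 ± 0.80), Kptn (3.23 ± 0.86) and the kinase gene Tbk1 (2.38 ± 0.64) were below the floor in most or several Klf2-low cells. Limma adjusted p-values of these 8 ran from 0.513 to 0.665.

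Timp1, an inhibitor of matrix metalloproteinases, led the genes with the lower mean. It was at 9.64, 9.94, 9.23 and 9.95 in cells 6, 8, 10 and 17 and at 10.71 through 11.15 to 11.54 in the Klf2-low cells. Every cell was above the floor and the classes did not overlap (difference -1.44 ± 0.23, limma adjusted p = 0.166). Csrp2, a LIM domain protein gene (-2.15 ± 0.47), Mycbp (-1.35 ± 0.29) and Arhgap21 (-1.26 ± 0.29) did not overlap either. Other probe sets differed by -1.22, -0.18 and -0.30 for Mycbp and by -1.72 for Arhgap21. Coil, the scaffold of Cajal bodies, overlapped in cell 4 (-2.31 ± 0.51).

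Xpo4, Gcnt1, Med12l, Oplah and Ankrd33b were below the floor in most Klf2-high cells. Xpo4, a nuclear transport receptor, was above the floor in 0 of 4 and 6 of 6 cells and at least 2.64-fold lower in the Klf2-high cells, though another Xpo4 probe set differed by 0.78. Gcnt1, a glycosyltransferase of O-glycan branching, was likewise at least 3.31-fold lower. Both genes met the filter on low values through the 6 Klf2-low cells alone. Med12l (-4.57 ± 0.79), Oplah (-4.33 ± 0.90) and Ankrd33b (-4.60 ± 1.12) were each above the floor in 1 Klf2-high cell, which was cell 6, 8 and 17 in turn. Among the 10 genes with the lower mean, limma adjusted p-values ran from 0.166 to 0.665.

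**Figure D5:**
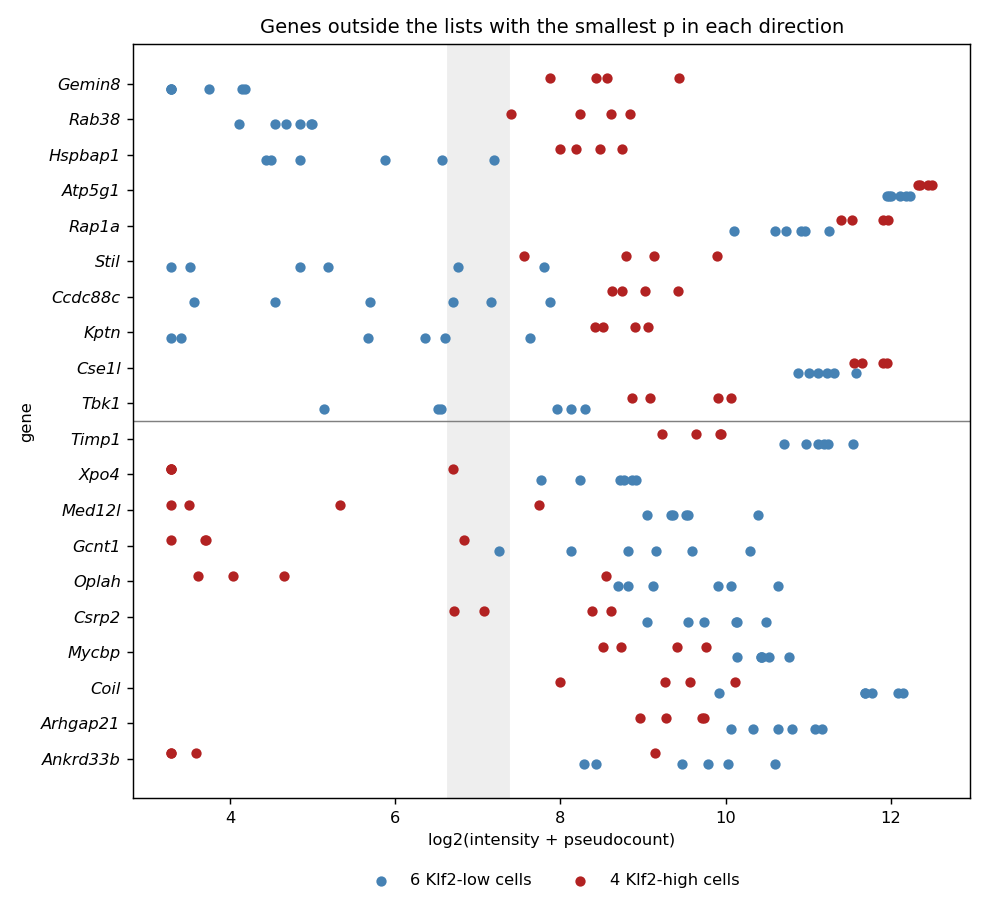
Levels (log2(intensity + 8.77)) of unlisted genes ranked by p, 10 with the higher mean in Klf2-high cells (top) and 10 with the lower mean (bottom). Red points are the 4 Klf2-high and blue points the 6 Klf2-low cells, and the grey band is the range of array floors. Timp1, Mycbp, Arhgap21, Rap1a and Atp5g1 separate the classes with every cell above the floor, and Gemin8 and Rab38 are below it in all 6 Klf2-low cells.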

How the data were processed

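For each of 20 arrays the authors deposited linear intensity values per probe set, between 1 and 26616. Per the labels' protocols, biotinylated cRNA came from PCR-amplified cDNA of 1 lysed cell by the one-cycle Affymetrix procedure. Which software, background correction and scaling made them is not given in the sources used here. Of 45101 probe sets, 64 were controls, 34945 had 1 gene in GEO's platform annotation, 932 several and 9160 none. Symbols were updated through Entrez identifiers (34754 matched RefSeq, GRCm38.p6). The 2%-trimmed means of the arrays ran from 183 to 221, so arrays were quantile normalized and log2(intensity + 8.77) was taken, where 8.77 is the median 25th percentile.

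Of several probe sets for a gene, the brightest on average in the 20 cells was kept (18193 genes). Each array's floor was the 95th percentile over 188 probe sets of vomeronasal, olfactory and other unrelated-tissue genes. Genes above it in at least 3 Fgf4-low cells were tested, without regard to Klf2, using limma 3.58.1 in R 4.3.3 (lmFit, eBayes with trend), adjusted over all 8395. Klf2 and Fgf4, used in the choice, were not tested. Only Nanog, Gata4 and Gata6 had exact permutation tests. No set test was run. Cells, lists and rules were chosen with earlier results of these data known. The naming rule took lineage markers, the members of other lists with the largest and smallest difference, and 10 leading genes per direction. The fit was tested on simulated data with 200 changed genes. With each gene's own spread it recovered 68 of them at a change of 2 log2 units and 134 at 4. With the spread of the steadier genes it recovered 199 and 200. Array number and signal over the floor limit the precision. No 2 arrays shared most of their values.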

Additional observations from a re-analysis of the deposited data

Results flagged for a closer look

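In 17 of 184 checked groups of 4 or 6 cells, 1 cell stood far from the others. In the Klf2-high cells this was cell 6 for Eomes (5.19) and Xpo4 (6.70), cell 8 for Acvr1b (9.24) and Gcnt1 (6.83), and cell 10 for Map2k5 (7.88). Cell 17 stood apart for Esrrb (8.70), Pou5f1 (9.94) and Ankrd33b (9.15). In the Klf2-low cells it was cell 4 for Fgfr2 (11.61), Map3k3 (3.92), Cox5a (12.50) and Coil (9.92), and cell 15 for Prdm14 (7.59) and Dnmt3b (8.95). Cell 5 stood apart for Dnmt1 (9.05), cell 11 for Sall4 (12.45) and cell 20 for Med12l (10.40). Values are log2 levels, and those of Eomes, Xpo4, Gcnt1 and Map3k3 were below the floor of their arrays. The genes were named partly for their differences, and some values sat at the lowest possible level. No rate expected by chance is therefore set beside the count of 17.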

How the results depend on the processing

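The count of genes with a limma adjusted p under 0.05 was 0 in 12 of 23 other settings and 1 to 3 in the other 11, with at least 392 genes at an unadjusted p under 0.05 in each. A larger pseudocount (50th percentile) gave 1 (Gemin8), and it was 2 with no filter and 2 with the filter over 20 cells (Gemin8 and Rab38), 1 with the mean of all probe sets (Rab38) and 3 with the Klf2 threshold at 500 (Rcn1, Ddost and Atg12). Leaving out 1 cell at a time gave 0 to 3 genes. These were Ajuba and Gemin8 without cell 4, Xpo4 and Med12l without cell 6, Oplah, Nectin2 and Gcnt1 without cell 8, Ankrd33b and Slc18b1 without cell 17, and Gemin8 and 4933427D14Rik without cell 20. Without cells 4, 8, 17 and 20, a setting added after the data were seen, there were 2 (Marcksl1 and Hspa5). The cause of these changes was not tested. Of 92 named genes tested, 27 differed by less than their SE, and a change of sign was not counted for them. Of the other 65, 60 kept their sign in every setting. With the Klf2 threshold at 500 the sign turned for Bmp4 (-1.59), Eomes (-0.12), Lin28a (0.65) and Pola1 (0.41), and with values raised to the floor for Chac1 (0.076). The epiblast median stayed above 0 and the primitive endoderm median below it in every setting. No paired analysis was possible because the labels form 1 group.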
